A study of Mus musculus with 18 samples.

Results

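The B-cell receptor (BCR) signalling cascade was described here through 51 genes that encode the receptor's signalling chains and the kinases, phosphatases, adaptors and effectors that act downstream of it. They were taken from a list of symbols, and each of the 51 matched 1 identifier of the 51912 in the table by the GRCm38 annotation. RNA had been sequenced from B cell populations of C57BL/6 mice, either WT or *Sh3gl1*-/-, which lack endophilin A2, a membrane-curving adaptor of endocytosis, in every cell of the animal. The 3 cell states were transitional B cells *ex vivo*, follicular B cells *ex vivo*, and follicular B cells treated with CD40L for 14 h, so that there were 6 groups of 3 libraries and 18 libraries in all. *Ex vivo* cells were untreated, and no follicular cells cultured without CD40L were analysed here, so that culture and CD40L cannot be told apart. The mice's age was not given in the sources used here, and the labels do not say whether a replicate number marks the same mouse in each state. The p-values therefore measure the spread between these libraries.

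The BCR is a surface immunoglobulin bound to the CD79A and CD79B chains, whose cytoplasmic motifs are phosphorylated by the Src-family kinases LYN, FYN and BLK and then bind the kinase SYK. SYK phosphorylates the scaffold BLNK, which brings together BTK and phospholipase C gamma, encoded by *Plcg2*. The lipase's products open calcium channels of the endoplasmic reticulum and activate protein kinase C and the RasGRP exchange factors, and from there the signal runs to calcineurin and NFAT, to NF-kappaB through the BCL10-MALT1 complex, and to ERK. CD40L is the ligand with which helper T cells stimulate B cells through CD40.

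Library totals lay between 12404688 and 18366078 expected counts. *Sh3gl1* had 377 to 929 counts in the WT libraries and 1 to 22 in the *Sh3gl1*-/- libraries. All 8 B-cell marker genes were present in each group. The summed level of 5 transitional markers was 874 to 1010 CPM (counts scaled to library size by TMM) in transitional WT cells, 374 to 459 CPM in follicular WT cells and 52.8 to 85.8 CPM after CD40L, and *Rag1* was at 0 in the follicular WT cells. In *Sh3gl1*-/- cells the same sum was lower, 505 to 804 CPM in transitional, 299 to 313 CPM in follicular and 33.4 to 48.0 CPM in CD40L-treated cells. Most of that sum *ex vivo* was *Cd24a* and *Vpreb3*. *Cd93* of the same list went the other way *ex vivo*. Its means in WT and *Sh3gl1*-/- cells were 64.9 and 75.5 CPM in transitional and 12.9 and 21.1 CPM in follicular cells. Among the markers of other cells, 12 T-cell genes summed to 224 to 271 CPM in follicular WT and 342 to 424 CPM in follicular *Sh3gl1*-/- cells, and 12 myeloid genes to 171 to 261 and 262 to 982 CPM. The 6 plasma-cell genes summed to 512 to 738 CPM in transitional WT and 1166 to 4645 CPM in transitional *Sh3gl1*-/- cells. In WT and *Sh3gl1*-/- libraries the 9 erythroid and platelet genes summed to 2287 to 3984 and 4452 to 9535 CPM in transitional cells, to 1436 to 3871 and 3007 to 9370 CPM in follicular cells, and to 7.04 to 362 and 32.0 to 116 CPM after CD40L.

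The receptor chains were the most abundant members (the plot of TPM by member). Levels of different genes were compared in TPM, which corrects for transcript length. In follicular WT cells *Cd79a* had 3639.6 ± 122 TPM (SD, n = 3) and *Cd79b* 3241 ± 33.3 TPM, and these were the only members over 1000 TPM. *Ptprc*, which encodes the phosphatase CD45, followed with 942 ± 70.9 TPM, then *Ptpn6*, which encodes the inhibitory phosphatase SHP1, with 671 ± 55.7 TPM and the scaffold gene *Bank1* with 633 ± 39.6 TPM. *Ptpn6* and *Bank1* differed by less than their spread. The median member stood at 38.0 TPM, 41 members reached 10 TPM and 15 reached 100 TPM. At the low end, *Orai1*, the pore of the store-operated calcium channel, had 1.66 ± 0.30 TPM. The scaffold genes *Gab1* and *Gab2* were near absent, with at most 9 and 29 counts in any library. *Gab1* failed the low-count filter in every comparison, and *Gab2* was tested only in transitional cells, in the average over states and between transitional and follicular cells, and was called in none. With all genes of at least 1 count tested it was lower in follicular than in transitional WT cells (-2.98 on the log2 scale, adjusted p = 0.020, edgeR). The low-count filter left 49 or 50 members tested in each comparison.

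**Figure D1:**
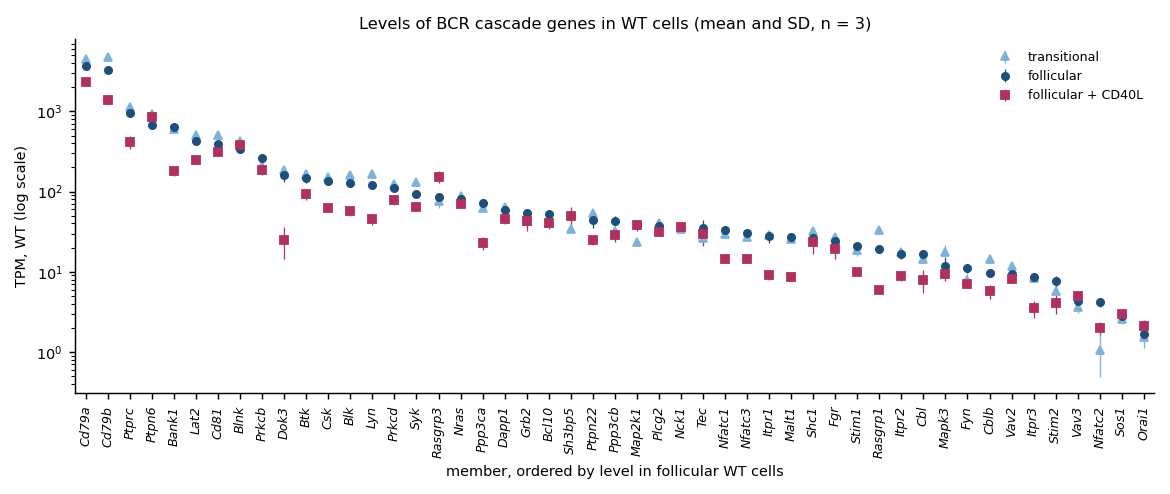
Mean TPM (log scale) of 49 members in WT transitional, follicular and CD40L-treated follicular cells, ordered by their level in follicular cells, with bars for the SD of 3 libraries. *Gab1* and *Gab2*, near 0, are not drawn. *Cd79a* and *Cd79b* stand above all others, and many of the squares for CD40L-treated cells lie below the circles for follicular cells.

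After CD40L treatment most of the cascade was lower in follicular WT cells. Of 49 members tested, 28 fell and 3 rose in edgeR's quasi-likelihood test, with a limit of 0.05 on the adjusted p, where over all 14460 genes 25.7% fell and 23.6% rose. The median log2 change was -0.45 over the members and -0.08 over all genes. Standard errors follow each log2 fold change after ±. In *Sh3gl1*-/- cells 25 members fell, against 21.8% of all genes, and 4 rose, against 20.6%, with a median of -0.37. All 25 of those were among the 28 that fell in WT cells, whose other members were *Fyn*, *Ppp3cb* and *Stim2*. With library totals as the only scaling the median of all genes moved to -0.22 in WT cells, and 33 members fell and 2 rose, against 30.8% and 19.2% of all genes. The summed levels of the B-cell, T-cell, myeloid, NK-cell and erythroid and platelet markers were each lower after CD40L than *ex vivo* in WT cells (B-cell genes 64546 to 66860 CPM *ex vivo* and 51441 to 58314 CPM after CD40L). The plasma-cell sum was higher, 128 to 203 CPM *ex vivo* and 262 to 285 CPM after CD40L, but its genes did not move together. *Irf4* rose from a mean of 66.6 to 216 CPM, and the means of *Xbp1* and *Prdm1* were also higher. *Jchain* fell from a mean of 80.75 to 20.01 CPM and *Sdc1* from 2.64 to 0.125 CPM, and *Tnfrsf17* was at 0 in both. The part of cell composition in the members' changes was not tested.

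**Figure D2:**
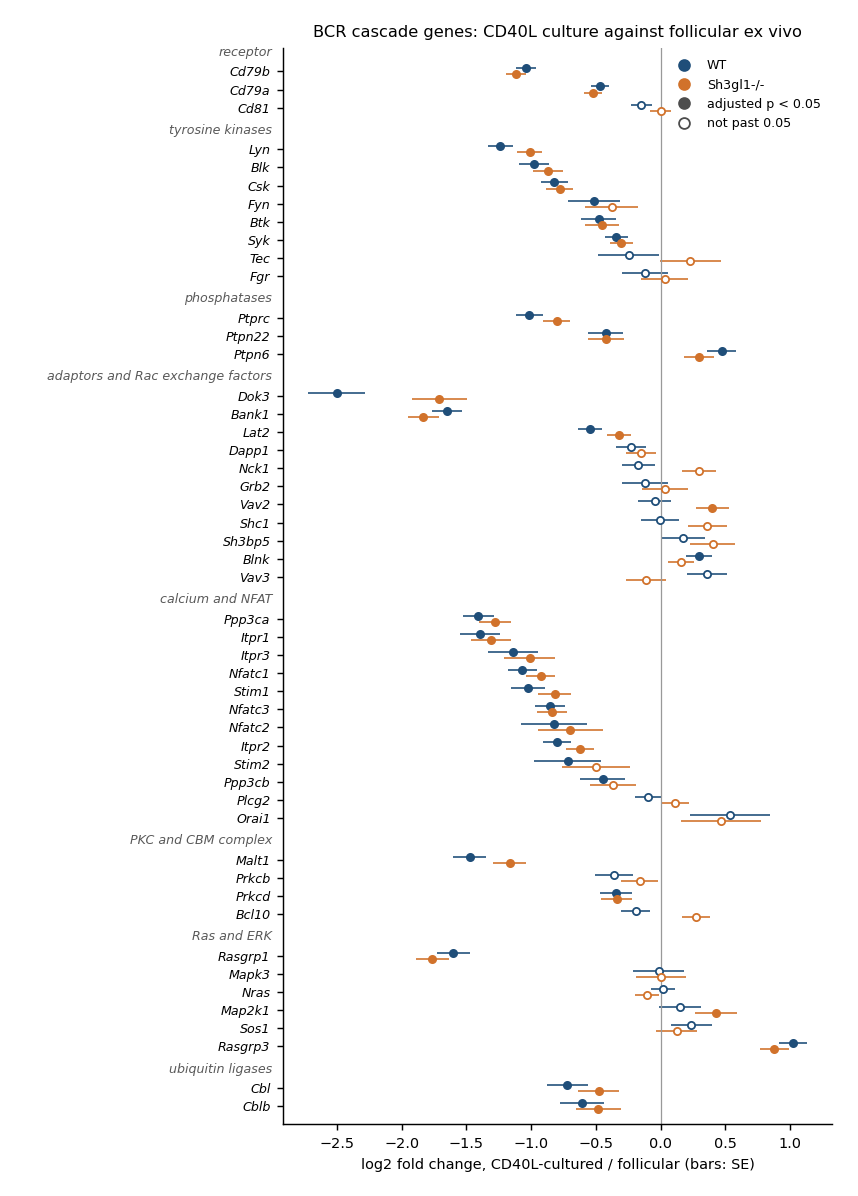
Log2 fold change of each tested member between CD40L-treated and *ex vivo* follicular cells, by role, in WT (blue) and *Sh3gl1*-/- (orange) cells, with bars for the standard error. Filled points passed an adjusted p of 0.05. Filled points lie mostly left of 0, from -2.50 for *Dok3* in WT cells, and only *Rasgrp3* lies right of 0 with a change near 1.

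Both signalling chains of the receptor fell. *Cd79b* (ENSMUSG00000040592, GRCm38 chr11:106311341-106314762, minus strand) had 2999.6, 2996 and 3055 CPM in the 3 follicular WT libraries and 1644, 1471 and 1370.3 CPM after CD40L. The sets of values were far apart, and the fitted log2 change was -1.04 ± 0.08 (adjusted p = 1.9e-07). *Cd79a* went from 4179, 4206 and 4062 to 3350.0, 3006 and 2812 CPM, a smaller step with a log2 fold change of -0.47 ± 0.07 (adjusted p = 9.2e-05). *Cd81*, a tetraspanin of the B-cell surface, did not pass the test, at -0.15 ± 0.08.

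Of 8 tyrosine kinase genes, 6 fell in WT and 5 in *Sh3gl1*-/- cells. *Lyn*, whose product starts the signal and also feeds inhibitory receptors, had 303, 307 and 278 CPM in follicular WT libraries and 117, 138 and 129 CPM after CD40L, a log2 fold change of -1.24 ± 0.10 (adjusted p = 2.5e-07). *Blk* changed by -0.98, *Csk*, which restrains the Src family, by -0.82, *Btk* by -0.48 and *Syk* by -0.34 on the log2 scale in WT cells. All of these passed the test in both genotypes. *Fyn* changed by -0.52 ± 0.20 (adjusted p = 0.046) in WT and -0.38 ± 0.20 in *Sh3gl1*-/- cells, where it did not pass. In WT cells it did not pass with the replicate number as a block (-0.52, adjusted p = 0.070), with DESeq2, with RLE scaling or in 8 of 12 fits that left out 1 library (-0.61 to -0.40 over the 12). Beside *Fyn*, which T cells also express, the T-cell genes summed to 79.3 to 117 CPM after CD40L in WT cells, below the *ex vivo* libraries. Most of the treated sum was *Lck*, whose mean went from 105 to 74.1 CPM. The other T-cell genes fell further, such as *Cd3e* from 10.6 to 2.17 CPM and *Trbc2* from 28.7 to 5.56 CPM. The part of T cells in the *Fyn* value was not tested. *Tec* and *Fgr* did not pass in either genotype.

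The 3 phosphatase genes moved in different directions. *Ptprc* had 2652, 2884 and 3018 CPM in follicular WT libraries and 1250.2, 1622 and 1451 CPM after CD40L, a log2 fold change of -1.01 ± 0.10 (adjusted p = 3.2e-06). *Ptpn22*, an inhibitor of Src-family and SYK-family kinases, also fell, by 0.42 on the log2 scale (adjusted p = 0.019), but did not pass without follicular WT replicate 3 (-0.25) or CD40L WT replicate 2 or 3 (-0.42 and -0.38). *Ptpn6* rose, from 995, 1163 and 1019 to 1245, 1718 and 1533 CPM, with a log2 fold change of 0.47 ± 0.11 (adjusted p = 0.0033). Its lowest treated library lay only just above the highest *ex vivo* one, and the rise in *Sh3gl1*-/- cells, 0.30 (adjusted p = 0.048), did not pass when counts were scaled by library totals alone.

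Adaptors held the steepest fall. *Dok3* (ENSMUSG00000035711, GRCm38 chr13:55523231-55529296, minus strand) encodes a docking protein that recruits inhibitory enzymes to the BCR. Its level was 204, 215 and 160.4 CPM in follicular WT libraries and 28.7, 50.1 and 25.5 CPM after CD40L. Every treated library was far below every *ex vivo* one, with a 5.67-fold lower fitted level and a log2 fold change of -2.50 ± 0.22 (adjusted p = 7.4e-07). In *Sh3gl1*-/- cells it went from 175, 166 and 142 to 46.3, 46.2 and 56.8 CPM, a log2 fold change of -1.71 ± 0.21 (adjusted p = 2.5e-05).

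*Bank1*, the scaffold that links LYN to calcium release, went from 1514, 1659 and 1706 to 451, 567 and 570.1 CPM in WT cells, a log2 fold change of -1.65 ± 0.12 (adjusted p = 1.1e-07). *Lat2*, a membrane adaptor, fell by 0.55 on the log2 scale. *Blnk*, the central scaffold, was the adaptor that rose in WT cells, from 522, 544 and 569 to 619, 696 and 727 CPM. Its log2 fold change of 0.29 ± 0.10 (adjusted p = 0.026) was small, did not pass in *Sh3gl1*-/- cells, and did not pass in WT cells when follicular WT replicate 1, CD40L WT replicate 2 or CD40L WT replicate 3 was left out (0.25 to 0.28) or with library totals alone (0.15). *Vav2*, a Rac exchange factor, rose in *Sh3gl1*-/- cells (0.40, adjusted p = 0.022) and was at -0.04 ± 0.13 in WT cells. The other tested genes of this group, the adaptors *Dapp1*, *Grb2*, *Shc1* and *Nck1*, the BTK inhibitor *Sh3bp5* and the Rac exchange factor *Vav3*, did not pass in either genotype, with log2 fold changes from -0.23 (*Dapp1*) to 0.36 (*Vav3*) in WT cells.

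Most genes of the calcium and NFAT arm fell. In WT cells 10 of its 12 members fell and none rose, with a median log2 change of -0.84, and in *Sh3gl1*-/- cells 8 fell, with a median of -0.76. *Ppp3ca* (ENSMUSG00000028161, GRCm38 chr3:136670124-136937727, plus strand), the catalytic subunit of calcineurin, had 226, 225 and 221 CPM in follicular WT libraries and 99.0, 88.2 and 71.3 CPM after CD40L. Its 3 *ex vivo* libraries were within a few CPM of each other and its treated libraries all under 100 CPM, for a log2 fold change of -1.41 ± 0.12 (adjusted p = 6.9e-07).

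All 3 genes for the inositol trisphosphate receptors, the calcium channels of the endoplasmic reticulum, fell. *Itpr1* went from 140.0, 154 and 185 to 51.9, 67.5 and 66.1 CPM with a log2 fold change of -1.39 ± 0.15 (adjusted p = 5.3e-06), and *Itpr3* and *Itpr2* changed by -1.14 and -0.80. *Stim1*, the sensor of the calcium store, changed by -1.02 and *Stim2* by -0.72 (adjusted p = 0.033) in WT cells, where *Stim2* lost its call in 4 of 12 fits without 1 library and *Ppp3cb* (-0.45, adjusted p = 0.046) in 9, as well as with DESeq2 and RLE scaling. In *Sh3gl1*-/- cells *Stim2* was at -0.50 ± 0.26 and the calcineurin gene *Ppp3cb* at -0.37 ± 0.17, and neither passed.

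The transcription factor genes *Nfatc1*, *Nfatc3* and *Nfatc2* changed by -1.07, -0.86 and -0.82 in WT cells. *Nfatc2* was the scarcest of the 3, with 12.9, 16.7 and 15.9 CPM in follicular WT libraries and 10.5, 7.62 and 8.08 CPM after CD40L. The 2 members of the arm that did not pass were *Plcg2*, at -0.10 ± 0.10, and *Orai1*, which had 2.85, 2.47 and 2.03 CPM *ex vivo* and 4.42, 2.81 and 3.67 CPM after CD40L, a log2 fold change of 0.54 ± 0.31.

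In the protein kinase C and CBM branch, *Malt1*, the protease of the complex that activates NF-kappaB, had 109, 116 and 110.2 CPM in follicular WT libraries and 46.0, 40.2 and 36.4 CPM after CD40L. No treated library came near the *ex vivo* range, and the log2 fold change was -1.48 ± 0.13 (adjusted p = 7.2e-07). Its partner *Bcl10* did not pass, with -0.19 ± 0.11 in WT and 0.27 ± 0.11 in *Sh3gl1*-/- cells. *Prkcd* fell by 0.34 in WT cells, a call lost with RLE scaling and in 9 of 12 fits without 1 library. *Prkcb*, the isoform that feeds the CBM complex, was at -0.36 ± 0.14 (adjusted p = 0.052), and passed with the replicate number as a block (-0.37, adjusted p = 0.022).

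The 2 RasGRP genes, both exchange factors for Ras that answer to diacylglycerol, moved apart. *Rasgrp1* (ENSMUSG00000027347, GRCm38 chr2:117279993-117343001, minus strand) went from 75.8, 72.4 and 62.9 to 21.6, 23.9 and 25.4 CPM in WT cells, a log2 fold change of -1.60 ± 0.13 (adjusted p = 2.8e-07). *Rasgrp3* (ENSMUSG00000071042, GRCm38 chr17:75435896-75529054, plus strand) went the other way, from 309, 338 and 325 to 590.3, 758 and 664 CPM, a log2 fold change of 1.02 ± 0.11 (adjusted p = 4.9e-06). In each gene the treated and *ex vivo* libraries did not overlap. The same directions passed in *Sh3gl1*-/- cells, at -1.76 and 0.88. In TPM, which compares genes per length, mean levels in WT cells went from 19.5 to 5.86 for *Rasgrp1* and from 85.0 to 154 for *Rasgrp3*. *Map2k1*, which encodes the ERK kinase MEK, rose in *Sh3gl1*-/- cells (0.43, adjusted p = 0.046) and was at 0.15 ± 0.16 in WT cells, where CD40L replicate 1 stood above the other two (93.7, 62.2 and 70.1 CPM). The Ras gene *Nras*, the Ras exchange factor gene *Sos1* and the ERK gene *Mapk3* did not pass in either genotype.

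Both ubiquitin ligase genes, whose products turn the signal down, fell. *Cbl* went from 93.7, 82.3 and 85.4 to 71.2, 44.6 and 46.2 CPM, with replicate 1 above the other two treated libraries and a log2 fold change of -0.72 ± 0.16 (adjusted p = 0.0019). *Cblb* went from 49.0, 52.4 and 51.2 to 27.1, 35.9 and 39.1 CPM, a log2 fold change of -0.61 ± 0.17 (adjusted p = 0.0092).

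**Figure D3:**
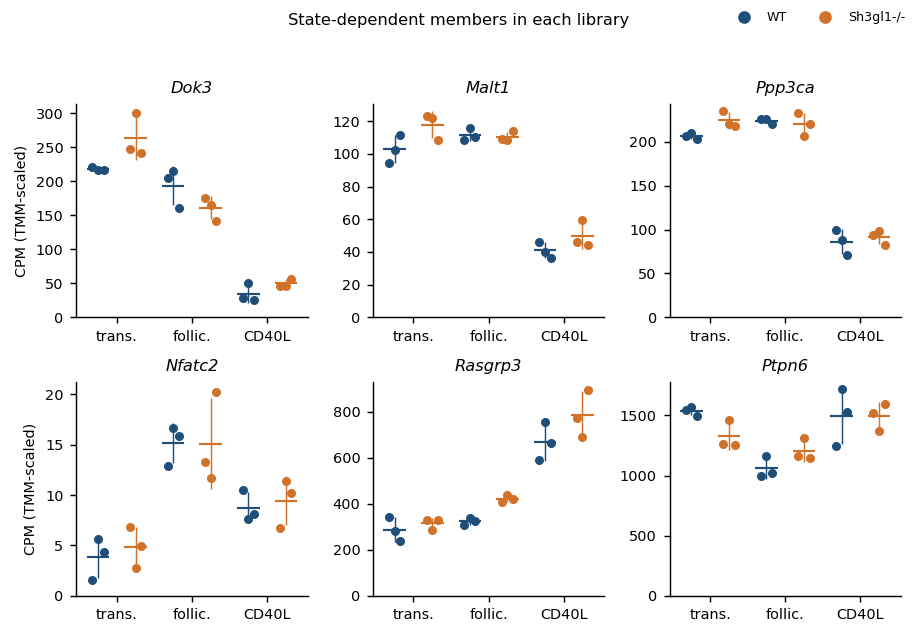
CPM of 6 members in each library of transitional, follicular and CD40L-treated follicular cells, WT in blue and *Sh3gl1*-/- in orange, with the mean (horizontal line) and SD (vertical line) of 3 libraries. *Dok3*, *Malt1* and *Ppp3ca* drop after CD40L in both genotypes, *Rasgrp3* rises, and *Nfatc2* is lowest in transitional cells.

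The response itself was compared between genotypes with an interaction term. No member passed (0 of 49 with edgeR and 0 with DESeq2), and neither did any of the 14460 genes with edgeR (0%). At an unadjusted p under 0.05 there were 4 of the 49 members, against 1278 of the 14460 genes. The differences, *Sh3gl1*-/- minus WT, ran from -0.47 ± 0.22 for *Vav3* to 0.79 ± 0.30 (adjusted p = 0.50) for *Dok3*, with a median standard error of 0.18. Of the 49, 38 were above 0, with a median of 0.127, and the share of all genes above 0 was not compared. The median over all genes was 0.006, and it depended on the scaling, at -0.03 with RLE scaling and 0.11 with library totals alone. *Dok3* alone passed when all genes with at least 1 count were tested. Differences of the size of their standard errors were not detectable with these libraries.

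Between transitional and follicular WT cells *ex vivo*, the cascade was rearranged with no shared direction. Of 50 members tested, 9 were higher in follicular cells, against 11.7% of all genes, and 15 were lower, against 14.2%. In *Sh3gl1*-/- cells 3 were higher, against 3.7%, and 9 lower, against 6.71%. The median log2 change was -0.08 in WT and -0.07 in *Sh3gl1*-/- cells. The WT count fell from 24 to 14 without follicular WT replicate 1, and the *Sh3gl1*-/- count from 12 to 6 without transitional *Sh3gl1*-/- replicate 2 or follicular *Sh3gl1*-/- replicate 1 or 3. With the replicate number as a block, *Ptprc* (-0.20, adjusted p = 0.046) and *Dapp1* (-0.22, adjusted p = 0.044) also passed in WT cells, and *Lyn* (-0.27, adjusted p = 0.038), *Sh3bp5* (0.32, adjusted p = 0.030) and *Prkcb* (0.26, adjusted p = 0.048) in *Sh3gl1*-/- cells. These comparisons share the follicular libraries with the CD40L responses above. In transitional and follicular WT libraries the 12 myeloid genes summed to 462 to 487 and 171 to 261 CPM. The 6 plasma-cell genes summed to 512 to 738 and 128 to 203 CPM. In each list some means rose, such as *Ngp* (21.5 to 34.8 CPM) and *Xbp1* (17.3 to 21.6 CPM). The T-cell, NK-cell and erythroid and platelet sums overlapped. The part of cell composition in this step was not tested.

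**Figure D4:**
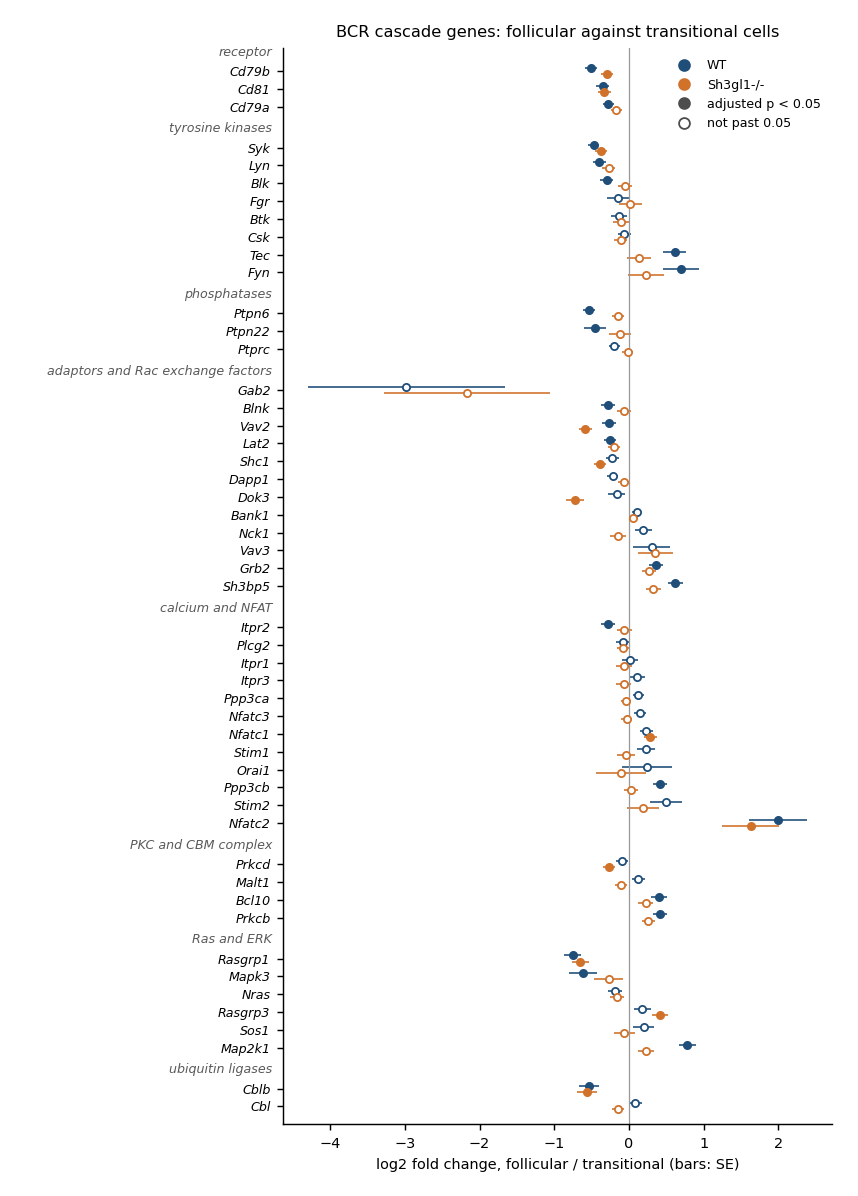
Log2 fold change of each tested member between follicular and transitional cells *ex vivo*, by role, in WT (blue) and *Sh3gl1*-/- (orange) cells, with bars for the standard error. Filled points passed an adjusted p of 0.05. *Nfatc2* lies farthest right with filled points in both genotypes, and the wide bars far left belong to *Gab2*, which had at most 29 counts in a library and did not pass.

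The largest rise was in *Nfatc2* (ENSMUSG00000027544, GRCm38 chr2:168476410-168601657, minus strand), an NFAT factor of mature lymphocytes. It had 1.57, 5.59 and 4.34 CPM in the transitional WT libraries and 12.9, 16.7 and 15.9 CPM in the follicular ones, which did not overlap, and a log2 fold change of 1.996 ± 0.39 (adjusted p = 0.0023). In *Sh3gl1*-/- cells it had 6.80, 2.74 and 4.96 CPM in transitional and 13.3, 11.7 and 20.3 CPM in follicular libraries and a log2 fold change of 1.63 ± 0.38 (adjusted p = 0.013). Among the calcium genes, *Ppp3cb* was also higher in follicular WT cells, by 0.41, and *Itpr2* lower, by 0.29. *Nfatc1* passed in *Sh3gl1*-/- cells, at 0.29 (adjusted p = 0.049), and was at 0.23 in WT cells. Without 1 library *Itpr2* lost its call in 7 of 12 fits and *Nfatc1* in 8 of 12, and each lost it in 2 of 5 other settings.

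*Map2k1* went from 40.9, 39.1 and 37.0 to 74.6, 64.3 and 61.0 CPM in WT cells, a log2 fold change of 0.78 ± 0.11 (adjusted p = 0.00023). *Sh3bp5*, which encodes an inhibitor of BTK, went from 68.7, 65.3 and 76.1 to 118, 99.5 and 103 CPM, with a log2 fold change of 0.62 ± 0.10 (adjusted p = 0.00063). Neither gene's groups overlapped. The BTK relative *Tec* had 38.5, 36.6 and 33.7 CPM in transitional and 51.5, 72.5 and 41.2 CPM in follicular WT libraries, a log2 fold change of 0.61 ± 0.16 (adjusted p = 0.012). Replicate 2 was the highest of these, and without it the change was 0.36 (adjusted p = 0.047).

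*Fyn* rose from 16.0, 13.6 and 15.8 to 27.7, 22.7 and 23.1 CPM with a log2 fold change of 0.70 ± 0.24 (adjusted p = 0.046). It was near the threshold and did not pass with RLE scaling (adjusted p = 0.051) or in 9 of the 12 fits that left out 1 library, namely any of the 3 transitional WT or the 3 follicular WT libraries, transitional *Sh3gl1*-/- replicate 3 or follicular *Sh3gl1*-/- replicate 1 or 2, where it ranged from 0.60 to 0.75. The T-cell genes, given above, summed to 180.3 to 232 CPM in transitional and 224 to 271 CPM in follicular WT cells, and their part was not tested. The means of *Lck*, *Cd4* and *Zap70* were lower in follicular cells, and those of the other T-cell genes higher. Smaller rises passed for *Prkcb* (237, 225 and 231 to 344, 285 and 290.1 CPM, log2 fold change 0.42), *Bcl10* (0.40) and the adaptor *Grb2* (0.36).

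Receptor chains, kinases and phosphatases were among the members that were lower in follicular than in transitional cells. All 3 receptor genes fell in WT cells. *Cd79b* had 4209, 4311 and 4402 CPM in transitional and 2999.6, 2996 and 3055 CPM in follicular WT libraries, a log2 fold change of -0.51 ± 0.08 (adjusted p = 0.00047), and *Cd81* and *Cd79a* changed by -0.35 and -0.28. *Syk* went from 463, 505 and 483 to 351, 351 and 341 CPM, a log2 fold change of -0.47 ± 0.07 (adjusted p = 0.00054), and *Lyn* and *Blk* changed by -0.40 and -0.30. *Ptpn6* went from 1547, 1569 and 1498 to 995, 1163 and 1019 CPM, a log2 fold change of -0.53 ± 0.08 (adjusted p = 0.00037), and *Ptpn22* changed by -0.45. *Ptpn22* lost its call with library totals alone and in 4 of 12 fits without 1 library. The adaptor genes *Blnk*, *Vav2* and *Lat2* fell by 0.28, 0.27 and 0.25 on the log2 scale, and lost their calls with library totals alone and in 5, 10 and 5 of 12 fits without 1 library.

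In the Ras branch *Rasgrp1* had 112, 128 and 119 CPM in transitional and 75.8, 72.4 and 62.9 CPM in follicular WT libraries, a log2 fold change of -0.76 ± 0.12 (adjusted p = 0.00042). *Mapk3*, which encodes an ERK kinase, went from 21.4, 27.7 and 18.1 to 13.9, 17.6 and 12.1 CPM with a log2 fold change of -0.61 ± 0.19 (adjusted p = 0.029), and did not pass without transitional WT replicate 2 or follicular WT replicate 1 or 3 (-0.43 to -0.58). *Cblb* went from 72.4, 73.2 and 76.3 to 49.0, 52.4 and 51.2 CPM, a log2 fold change of -0.53 ± 0.13 (adjusted p = 0.010), and *Cbl* was at 0.08 ± 0.08. *Dok3*, *Shc1* and *Prkcd* passed as lower, and *Rasgrp3* as higher, in *Sh3gl1*-/- cells, at -0.72, -0.39, -0.27 and 0.41, and were at -0.17, -0.22, -0.09 and 0.18 in WT cells, where they did not pass. In *Sh3gl1*-/- cells *Prkcd* lost its call in 10 of 12 fits without 1 library and *Rasgrp3* in 5 of 12.

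The difference in this step between genotypes passed for 0 of 50 members with edgeR, against 0.0686% of all genes. At an unadjusted p under 0.05 there were 7 of the 50 members, against 1992 of 14580 genes. DESeq2 called 2 members, *Ptpn6* as higher and *Dok3* as lower in the *Sh3gl1*-/- step, where edgeR gave differences of 0.38 ± 0.11 (adjusted p = 0.18) and -0.55 ± 0.17 (adjusted p = 0.18).

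Between *Sh3gl1*-/- and WT cells few members passed a test. *Vav3* was higher and *Cblb*, *Bank1* and *Rasgrp1* were lower in *Sh3gl1*-/- cells, with the same direction of the mean in each state (the plot of genotype differences by library). Averaged over the 3 states, 1 of 50 members was higher in *Sh3gl1*-/- cells, against 1.96% of all genes, and 7 were lower, against 1.87%. That fit takes the 18 libraries as independent, which they are not if the 3 mice of each genotype that the study names gave all states. When the 3 states of each replicate number were first averaged into 1 value, as if they came from 1 mouse, limma on 3 against 3 values called 1 member as higher, against 0.82% of all genes, and 3 as lower, against 0.781%, an alternative chosen after seeing the data. Over the 18 libraries the count of 8 ranged from 6 to 12 when 1 library was left out, the highest without CD40L WT replicate 1. In the edgeR fit on 18 libraries 21 of the 50 members had an unadjusted p under 0.05, against 2892 of 15117 genes.

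**Figure D5:**
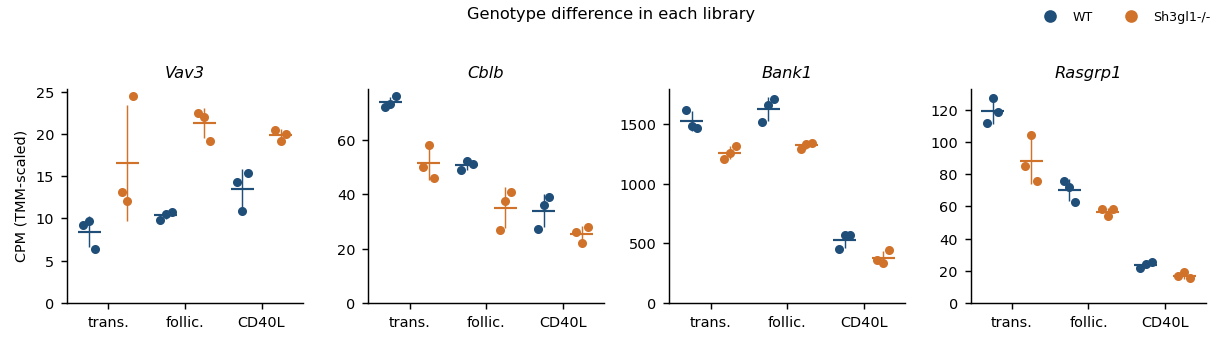
CPM of *Vav3*, *Cblb*, *Bank1* and *Rasgrp1* in each library by cell state, WT in blue and *Sh3gl1*-/- in orange, with the mean (horizontal line) and SD (vertical line) of 3 libraries. *Vav3* is higher and *Bank1* and *Rasgrp1* are lower in the *Sh3gl1*-/- libraries of each state without overlap, and *Cblb* overlaps in CD40L-treated cells.

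*Vav3* (ENSMUSG00000033721, GRCm38 chr3:109340653-109685698, plus strand), an exchange factor that activates Rac downstream of the BCR, was the member that rose. Its level was 9.23, 9.68 and 6.32 CPM in transitional WT and 13.1, 12.1 and 24.4 CPM in transitional *Sh3gl1*-/- libraries. It was 9.79, 10.6 and 10.7 against 22.5, 22.0 and 19.2 CPM in follicular cells, and 14.3, 10.9 and 15.4 against 20.5, 19.2 and 19.9 CPM after CD40L. In each state every *Sh3gl1*-/- library lay above every WT library, which held for 1 of 50 members and for 0.549% of all genes tested. The averaged log2 fold change was 0.85 ± 0.13 (adjusted p = 0.00082), and 0.83 (adjusted p = 0.0079, limma) with 1 value per replicate number.

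*Cblb* (ENSMUSG00000022637, GRCm38 chr16:52031225-52208048, plus strand), the ubiquitin ligase that limits antigen receptor signals, had 72.4, 73.2 and 76.3 CPM in transitional WT and 50.2, 58.2 and 45.9 CPM in transitional *Sh3gl1*-/- libraries. In follicular cells it had 49.0, 52.4 and 51.2 CPM in WT and 26.8, 37.6 and 41.0 CPM in *Sh3gl1*-/- libraries, and after CD40L 27.1, 35.9 and 39.1 against 26.2, 22.1 and 28.1 CPM, where the genotypes overlapped. The averaged log2 fold change was -0.49 ± 0.09 (adjusted p = 0.0031), and -0.50 (adjusted p = 0.025, limma) with 1 value per replicate number.

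*Bank1* (ENSMUSG00000037922, GRCm38 chr3:136053363-136326066, minus strand) had 1621, 1481 and 1469 CPM in transitional WT and 1203, 1259 and 1312 CPM in transitional *Sh3gl1*-/- libraries. In follicular cells the values were 1514, 1659 and 1706 against 1288, 1334 and 1341 CPM, and after CD40L 451, 567 and 570.1 against 357, 331 and 439 CPM. The averaged log2 fold change was -0.36 ± 0.06 (adjusted p = 0.0015), and -0.36 (adjusted p = 0.027, limma) with 1 value per replicate number. *Rasgrp1* had 112, 128 and 119 against 85.4, 105 and 75.7 CPM in WT and *Sh3gl1*-/- transitional libraries, 75.8, 72.4 and 62.9 against 58.2, 54.1 and 58.2 CPM in follicular ones, and 21.6, 23.9 and 25.4 against 16.5, 19.3 and 15.2 CPM after CD40L. The averaged log2 fold change was -0.41 ± 0.07 (adjusted p = 0.0025), and -0.41 (adjusted p = 0.032, limma) with 1 value per replicate number. In *Bank1*, *Rasgrp1* and *Cd81* every *Sh3gl1*-/- library lay below every WT library in all 3 states, which held for 3 of 50 members and 0.556% of all genes.

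The upstream sequences of *Bank1*, *Rasgrp1* and *Vav3* are shown because these genes were called by genotype in both the fit on 18 libraries and that on 1 value per replicate number. Each is the part of the 250 bases before the most upstream RefSeq start site on GRCm38.p6 that lies outside the annotated span of the gene, written 5′ to 3′ on the gene's strand, at chr3:136326067-136326316 (minus strand, 250 bases), chr2:117343002-117343127 (minus strand, 126 bases) and chr3:109340433-109340652 (plus strand, 220 bases). The window of *Cblb*, the other such gene, lies wholly inside its annotated span and is not shown. Capitals mark matches, on either strand, to the 5 motifs searched, and in these stretches they fell in *Bank1* alone, namely the E-box letters CAGGTG and the TATA letters TATAAA, whose matches on both strands overlap in 1 run.
Bank1: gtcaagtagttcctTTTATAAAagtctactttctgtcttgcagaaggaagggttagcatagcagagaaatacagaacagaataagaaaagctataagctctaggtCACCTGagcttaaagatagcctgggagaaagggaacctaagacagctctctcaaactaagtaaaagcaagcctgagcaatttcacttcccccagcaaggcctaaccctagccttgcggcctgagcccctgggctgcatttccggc
Rasgrp1: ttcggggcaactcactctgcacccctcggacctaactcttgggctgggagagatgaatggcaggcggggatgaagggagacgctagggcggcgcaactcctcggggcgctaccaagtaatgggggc
Vav3: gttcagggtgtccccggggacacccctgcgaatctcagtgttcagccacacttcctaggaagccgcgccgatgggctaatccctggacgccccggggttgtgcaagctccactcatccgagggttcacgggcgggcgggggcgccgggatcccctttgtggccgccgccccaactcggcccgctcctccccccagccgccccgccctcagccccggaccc
RefSeq windows were at hand for 41 of the 51 members, 56 windows of 250 bases in all, some of which reach into the annotated span of the gene. The E box was found in 23.2% of the member windows and 17.2% of all 32851 windows, the ETS core GAGGAA in 28.6% and 23.3%, and the TATA letters in 12.5% and 12.4%. The other two motifs were the octamer ATGCAAAT, in 7.14% of member windows (*Blnk*, *Itpr3*, *Orai1* and *Prkcb*) and 1.6% of all, and the kappa B pattern, GGG and TTCC with 3 free bases between, in 5.36% and 4.65%. Its TTCC can overlap an ETS core read on the other strand. A match is a string of letters and no evidence of binding.

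The receptor genes and *Syk* differed less. Averaged over states, *Cd79a*, *Cd79b*, *Cd81* and *Syk* were lower in *Sh3gl1*-/- cells by 0.18, 0.22, 0.24 and 0.23 on the log2 scale (adjusted p = 0.042, 0.019, 0.012 and 0.013). None of the 4 passed with 1 value per replicate number (adjusted p = 0.17, 0.13, 0.077 and 0.060 in the same order, limma). *Cd81* had 677, 559 and 542 against 506, 439 and 489.6 CPM in WT and *Sh3gl1*-/- transitional libraries, 481, 441 and 463 against 379.7, 389 and 379.9 CPM in follicular ones, and 429.5, 450.4 and 395 against 381, 395 and 386 CPM after CD40L. *Syk* had 463, 505 and 483 against 382, 428 and 359 CPM in transitional cells, 351, 351 and 341 against 294, 316 and 299 CPM in follicular cells, and 273, 291 and 275 against 234, 234 and 277 CPM after CD40L, where the groups overlapped. *Cd79b* had 3220.0, 3943 and 2991 CPM in transitional, 2653, 2887 and 2818 CPM in follicular and 1316, 1371 and 1215 CPM in CD40L-treated *Sh3gl1*-/- libraries. *Cd79a* had 4485, 5326 and 5382 CPM in transitional WT libraries, and 4146, 4736 and 3982 CPM in transitional, 3786, 3793 and 3938 CPM in follicular and 2614, 2796 and 2716 CPM in CD40L-treated *Sh3gl1*-/- libraries. *Cd79a* also lost its call in 14 of the 18 fits that left out 1 library, all but those without transitional WT replicate 1, transitional *Sh3gl1*-/- replicate 2 or CD40L WT replicate 1 or 3, and over the 18 it stayed between -0.21 and -0.15. *Cd79b* lost its call without follicular *Sh3gl1*-/- replicate 1 (-0.21). Both lost it with library totals alone (-0.15 and -0.20).

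Of the 7 members lower by genotype averaged over states, all but *Bank1* also passed as lower in follicular than in transitional WT cells. They were *Cd79a*, *Cd79b*, *Cd81*, *Syk*, *Rasgrp1* and *Cblb*. Of all genes, 14.2% were lower in that step. The transitional marker sum given above was lower in *Sh3gl1*-/- cells of each state, but the mean of *Cd93*, a gene of that list, was higher in *Sh3gl1*-/- cells *ex vivo*. The T-cell sum was higher in every follicular *Sh3gl1*-/- than WT library. *Lck*, the largest part of it, had follicular means of 105 and 120 CPM in WT and *Sh3gl1*-/- cells, and *Cd3e* of 10.6 and 27.4 CPM. The myeloid sum also did not overlap in follicular cells, at up to 261 CPM in WT and from 262 CPM in *Sh3gl1*-/- libraries, but overlapped in the other states. *S100a8*, *S100a9*, *Ngp* and *Camp* had higher means in *Sh3gl1*-/- cells of each state, and *Adgre1* in none. Follicular *S100a8* had means of 30.6 CPM in WT and 128 CPM in *Sh3gl1*-/- cells. The part of cell composition in these genotype differences was not tested. In bulk RNA, fewer cells of a type and less RNA per cell cannot be told apart.

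Within single states few members passed. In transitional cells 1 member was higher in *Sh3gl1*-/- cells, against 1.26% of all genes, and 2 were lower, against 2.48%. These were *Tec*, with 38.5, 36.6 and 33.7 CPM in WT and 50.04, 49.4 and 53.4 CPM in *Sh3gl1*-/- libraries (log2 fold change 0.49 ± 0.10, adjusted p = 0.033), *Ptprc*, with 3538, 3097 and 3219 against 2446, 2648 and 2524 CPM (-0.37 ± 0.08, adjusted p = 0.034), and *Cblb* (-0.52 ± 0.11, adjusted p = 0.034). The genotypes did not overlap in any of the 3, nor in many members that were not called, such as *Plcg2*, *Grb2* and *Nfatc3*. The share of all genes without overlap in this state alone was not compared. In edgeR 21 of the 50 members had an unadjusted p under 0.05 in transitional cells, against 2996 of 13774 genes. No member passed without transitional *Sh3gl1*-/- replicate 1 or 3, or without transitional WT replicate 2 or 3. *Tec* also lost its call without transitional *Sh3gl1*-/- replicate 2 (0.51, adjusted p = 0.054) and *Cblb* without transitional WT replicate 1 (-0.53, adjusted p = 0.068). DESeq2 called 11 members, the 3 above with *Vav3* higher and *Cd79b*, *Cd81*, *Syk*, *Lyn*, *Bank1*, *Dapp1* and *Rasgrp1* lower. The share of all genes called by DESeq2 was not compared with its member counts, here or in the other comparisons. The summed level of the plasma-cell genes was higher in every transitional *Sh3gl1*-/- than WT library. Most of that sum was *Jchain*, with means of 547 CPM in WT and 2786 CPM in *Sh3gl1*-/- cells, while *Irf4* had 77.0 and 71.8 CPM. The erythroid and platelet sum also did not overlap between the genotypes in transitional cells, and the part of these cells was not tested.

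In follicular cells 2 of 49 members were higher in *Sh3gl1*-/- cells, *Vav3* (log2 fold change 1.03 ± 0.15, adjusted p = 0.010) and *Rasgrp3*, with 309, 338 and 325 CPM in WT and 409, 437 and 422 CPM in *Sh3gl1*-/- libraries (0.38 ± 0.07, adjusted p = 0.037), against 0.485% of all genes. None was lower, against 0.36%, where DESeq2 called *Cd81*, *Bank1* and *Cblb* as lower. An unadjusted p under 0.05 in either direction was found for 15 of the 49 members, against 1481 of 13610 genes. *Vav3* did not pass without follicular *Sh3gl1*-/- replicate 1 (0.99, adjusted p = 0.070), nor *Rasgrp3* without any 1 of the 6 libraries (0.35 to 0.42). With library totals alone the split over all genes went from 66 higher and 49 lower to 55 and 62, and *Bank1* joined as lower. After CD40L no member passed, 0 of 49 with edgeR against 0.0227% of all genes in either direction, and 0 with DESeq2. At an unadjusted p under 0.05 there were 7 of the 49 members after CD40L, against 932 of 13188 genes. There *Vav3* was at 0.58 ± 0.19, *Bank1* at -0.47 ± 0.14 and *Rasgrp1* at -0.45 ± 0.17.

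Some members overlap other transcribed genes. An antisense gene with a mean of at least 10 counts lies over *Cd81*, *Lyn*, *Ptpn6*, *Bank1*, *Lat2*, *Sh3bp5*, *Itpr1*, *Map2k1* and *Cbl*, and a gene on the same strand over *Tec*, *Ptprc*, *Ptpn22*, *Itpr2*, *Prkcb* and *Cbl*. The labels describe stranded libraries, and the strand setting of the counting was not given in the sources used here, so that counts of these genes may hold reads of their neighbours.

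Among 64 other genes of the pathway, all tested, 37 were lower and 5 higher after CD40L in WT cells, against 25.7% and 23.6% of all genes, and 31 were lower and 9 higher in *Sh3gl1*-/- cells, against 21.8% and 20.6%. The 3 with the lowest adjusted p that fell were *Cd38*, an ectoenzyme of calcium signalling, from 753, 759 and 773 to 82.3, 98.7 and 69.5 CPM (log2 fold change -3.22), *Prkce* (-1.74) and *Siglecg*, an inhibitory BCR coreceptor (-1.28). The 3 that rose were the Rac gene *Rac2* (0.79), the calmodulin gene *Calm3* (0.76) and the adaptor *Dok1* (1.03), a relative of *Dok3*. Between transitional and follicular WT cells 14 of the 64 were higher and 13 lower in follicular cells, against 11.7% and 14.2%. *Ighm*, the heavy chain of IgM, had 11036, 12691 and 11988 CPM in transitional and 5442, 5629 and 5452 CPM in follicular libraries (-1.11), and *Ighd*, that of IgD, 2655, 3371 and 2460.0 CPM in transitional and 3825, 4599.8 and 4081 CPM in follicular libraries (0.57). *Pirb* and *Cd72*, both inhibitory receptors, changed by -1.28 and -0.67, and *Rasal3*, a Ras inhibitor gene, by 1.33. By genotype, averaged over states, 2 of the 64 were higher and 5 lower in *Sh3gl1*-/- cells, against 1.96% and 1.87%.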

How the data were processed

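RNA sequencing of 18 libraries was analysed. The deposited table holds the authors' RSEM estimates per gene: expected counts, not normalised, TPM and FPKM. Per the labels, stranded KAPA mRNA libraries were treated with cutadapt 1.9.1, STAR 2.5.2a and RSEM 1.3.0 on GRCm38. The study's methods instead name SMART-Seq HT with Nextera XT, and TopHat with Cufflinks, and an overnight culture. Legends of its RNA sequencing figures give a CD40L culture longer than the 14 h of the labels. Groups and replicate numbers came from the labels, and identifiers were joined to GENCODE M21 symbols (51633 of 51912). Positions are on GRCm38.

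Expected counts were rounded and tested in R 4.3.3 with edgeR 4.0.16 (TMM, filterByExpr by group, glmQLFit and glmQLFTest) over all genes, with Benjamini-Hochberg adjustment and calls at an adjusted p under 0.05. Genotypes were compared within each state on 6 libraries and averaged on 18. CD40L responses and follicular against transitional cells were each fitted on 12 libraries with 1 coefficient per group and an interaction contrast. CPM uses TMM-scaled totals. TPM served to compare genes, with FPKM as an alternative. The scripts were tested on simulated data. Library pairs within a group differed by a chi-square per degree of freedom of 9.25 to 47.8, and each counted as 1 sample.

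Same-numbered libraries of a genotype deviated together between transitional and follicular cells (r over 15117 genes of 0.103 to 0.242 in WT and 0.115 to 0.263 in *Sh3gl1*-/- cells) and between follicular and CD40L-treated WT cells (0.136 to 0.224). They did not all do so for CD40L in *Sh3gl1*-/- cells (0.03 to 0.119) or across genotypes (-0.088 to 0.101). Alternatives were DESeq2 1.42.0, RLE scaling, library totals alone, all genes with at least 1 count, a replicate block, leaving out each library and, added after seeing the data, limma 3.58.1 on 1 value per replicate number. Values per library are given for members called by genotype, the 6 largest changes in each direction of both WT state comparisons, the best of each role, and the 3 highest and lowest levels, and for other pathway genes the 3 lowest adjusted p in each direction, of which 1 gene is not reported here. The members and lists were chosen with earlier results of these data known.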

Additional observations from a re-analysis of the deposited data

How the results depend on the processing

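No fold change reversed its direction among the members and comparisons chosen for values per library. Counts did change sides. By genotype in follicular cells 2 members were higher and 0 lower, and DESeq2 called *Vav3* and *Rasgrp3* as higher but *Cd81*, *Bank1* and *Cblb* as lower. Between transitional and follicular WT cells 9 members were higher and 15 lower. With library totals alone the lower members there no longer outnumbered the higher ones. Over all genes, where calls were split near evenly, the larger side changed for genotype averaged over states (296 higher and 283 lower, 275 and 316 with RLE scaling), for CD40L in WT cells (3414 and 3712, 3586 and 3515 with RLE scaling) and for follicular against transitional WT cells (1699 and 2073, 1958 and 1838 with library totals alone). The numbers of members called stayed within 1.5 times in 43 of the 52 fits that changed the test, scaling, filter, block or unit, and in 95 of the 108 that left out 1 library. Exceptions were genotype in transitional cells, which went from 3 to 11 with DESeq2, 11 with all genes of at least 1 count and 0 with the replicate block, genotype in follicular cells, which went from 2 to 5 with DESeq2 and 4 with all genes of at least 1 count, and genotype averaged over states, which went from 8 to 4 with 1 value per replicate number. The CD40L difference between genotypes went from 0 to 1 with all genes of at least 1 count, and the follicular against transitional difference from 0 to 2 with DESeq2 and to 2 with all genes of at least 1 count. The cause was not tested. The share of all genes called was not compared for DESeq2, for all genes of at least 1 count, for the replicate block or with 1 library left out. Whether these moves concern the members or all genes was therefore not tested. Leaving out 1 library gave 0 to 4 calls by genotype in transitional cells, 0 to 2 in follicular cells, 0 to 0 after CD40L and 6 to 12 on average, 24 to 33 for CD40L in WT and 21 to 34 in *Sh3gl1*-/- cells, 14 to 24 for follicular against transitional cells in WT and 6 to 13 in *Sh3gl1*-/- cells, and 0 to 0 for both differences. The replicate block gave 31 and 30 calls for CD40L in WT and *Sh3gl1*-/- cells, 26 and 15 for follicular against transitional cells, and 3 in follicular cells, 0 after CD40L and 8 on average for genotype, where the numbers did not pair the libraries. In CD40L-treated against *ex vivo* *Sh3gl1*-/- cells, also not paired, *Vav2* lost its call under the block and *Ppp3cb* and *Sh3bp5* gained one. For single members, 177 of 188 values under other settings and 399 of 450 without 1 library kept direction and call, and the rest kept direction only. With FPKM in place of TPM, the median ratio of members' levels after CD40L to *ex vivo* went from 0.643 to 0.656 in WT cells. At these depths *Gab1* could not be assessed, and *Gab2* was tested only in comparisons with transitional libraries.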
